A study of Mus musculus with 6 samples.

Results

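The 58 genes described here carry the names of nucleolar proteins, nearly all of which take part in making ribosomes. They were taken by name from the annotation of the array: every gene whose symbol starts with Nop or Utp and a digit, or with Polr1, Nol or Rrp, with Wdr3, Wdr12, Wdr36, Wdr43, Wdr75 and the single genes Ncl, Npm1, Nhp2, Gar1, Bop1, Pes1, Ebna1bp2, Nip7, Tsr1, Bysl, Ubtf and Nolc1. They are 58 of 19057 genes measured, and are read by 105 of 45281 probes. Fbl and Npm3, which the same rule names, were not analysed here. Expression was measured on Illumina Mouse WG-6 v2.0 arrays in D3, an embryonic stem (ES) cell line of the mouse grown on gelatin in medium with serum and leukemia inhibitory factor (LIF), and in MIN6, an insulin-secreting insulinoma line of the mouse, grown in medium with serum and no LIF named. The labels name no treatment and no engineered allele for either line. Each line is represented by 3 samples on 1 array each, at passage 21 for D3 and passage 23 for MIN6 by the labels. The range of passages that the paper gives for its D3 cultures begins above the labelled one, while its range for MIN6 includes the labelled one. Cell line, medium and passage differ together and cannot be told apart.

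A ribosome is assembled in the nucleolus. RNA polymerase I (Pol I) transcribes a long precursor, small nucleolar ribonucleoproteins (snoRNPs) guide its methylation and pseudouridylation, a large complex called the small subunit processome folds and cuts the part that becomes the small subunit, and another set of factors matures the large subunit before both are exported. In growing cells this is among the most costly of all activities, and ES cells, which divide quickly, are known for large, active nucleoli.

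Marker genes fitted the labels. All 6 ES cell markers examined (Pou5f1, Nanog, Sox2, Zfp42, Dppa5a and Esrrb) were detected above background in all D3 samples, and of these only Dppa5a in MIN6 samples. All 6 insulinoma markers (Ins2, Pdx1, Nkx6-1, Iapp, Chga and Scg2) were above background in every MIN6 sample and in none of D3. Of 8 fibroblast and feeder cell markers, 2 (Vim and Thy1) were above background, in D3 cells alone, and Col1a1, Col1a2, Col3a1, Pdgfra, Dcn and Lum were above background on no array. The summed signal of that list was 2474 to 2649 on the D3 arrays and 1011 to 1081 on the MIN6 arrays, and its part in the results was not tested. Of 6 acinar and ductal markers Cela1 was above background in D3 cells and Krt19 in MIN6 cells and on 2 D3 arrays. The summed signals of these markers were 943 to 1061 in D3 and 1022 to 1090 in MIN6 cells. The sums of both lists include probes at background, which on the MIN6 arrays were all 8 of the fibroblast and feeder list. Between 34.4 and 35.9% of all probes were above background on each array. Signals are given as log2 of the quantile-normalized intensity. The normalization gives every array the same distribution, so that each value is relative to the other probes of its array and says nothing of the total RNA per cell. In these bulk samples, fewer cells that express a gene and less of its RNA per cell cannot be told apart.

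Most ribosome biogenesis genes were lower in MIN6 than in D3 cells. Of the 58 genes, 38 were called lower, 2 were called higher and 18 were not called, where a call needs 1.5-fold or more and an adjusted p under 0.05 (limma, with Benjamini-Hochberg adjustment across the array). Over all genes, 17.5% were called lower and 17.1% higher. The median difference of the 58 genes, MIN6 minus D3, was -1.30 on the log2 scale, against -0.01 over all genes. At least a 4-fold decrease was seen for 10 of the 58 genes, against 3.43% of all genes, and 33 were lower by at least 2-fold, against 10.9%. The 3 MIN6 values lay below the 3 D3 values for 43 of the 58 genes, against 28.1% of all genes, and above them for 4 genes, against 26.3%. Taken array by array, the median signal of the 58 genes came to 11.12, 11.04 and 11.13 for D3, against 9.76, 9.67 and 9.79 for MIN6. The 3 arrays of a line lay close together and far from those of the other line. The standard errors of the fitted differences ran from 0.093 to 0.15.

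**Figure D1:**
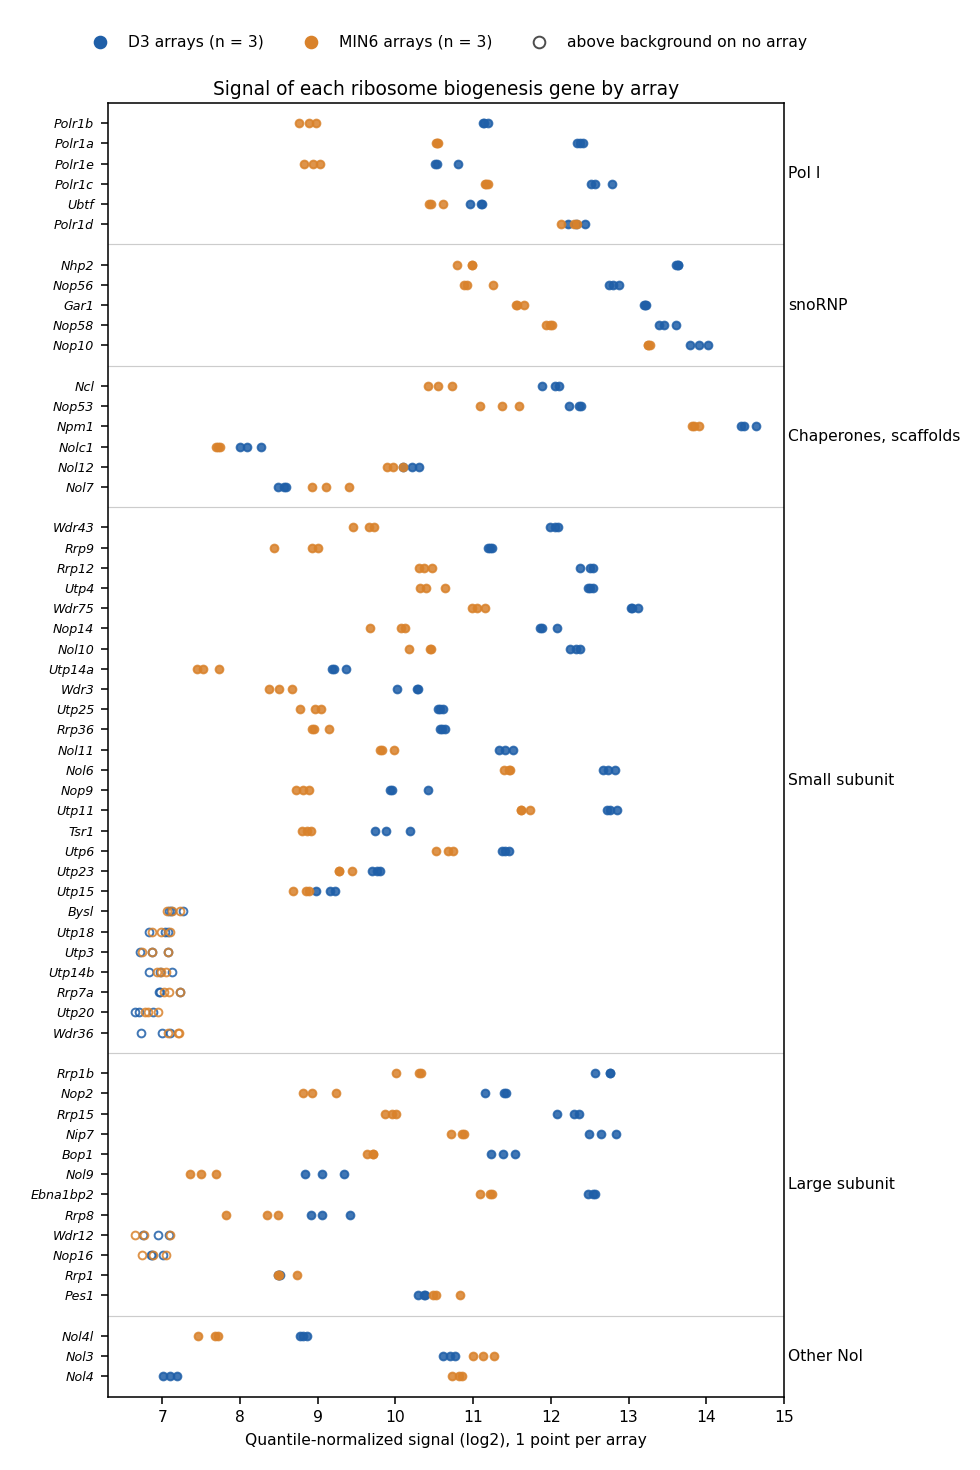
Signal of each of the 58 genes on each array (x axis, log2 of the quantile-normalized intensity), grouped by role and ordered within each group by the difference between the lines. Each point is 1 array, blue for D3 and orange for MIN6, and open circles mark the 9 genes above background on no array. In most rows the 3 orange points lie to the left of the 3 blue points without overlap, and Nol4 shows the opposite order.

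Not every gene could be measured in both lines. Of the 58, 44 were above background on all 6 arrays, 9 (Bysl, Nop16, Rrp7a, Utp3, Utp14b, Utp18, Utp20, Wdr12 and Wdr36) on none and 5 on some arrays only. The 9 dim genes were all uncalled and have no fold here, since a probe at background carries no level. Genes above background on all 6 arrays were called more often in general, with 28.9% lower and 27.3% higher over all 7223 such genes. Among the 44 of them described here, 35 were lower and 1 was higher.

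**Figure D2:**
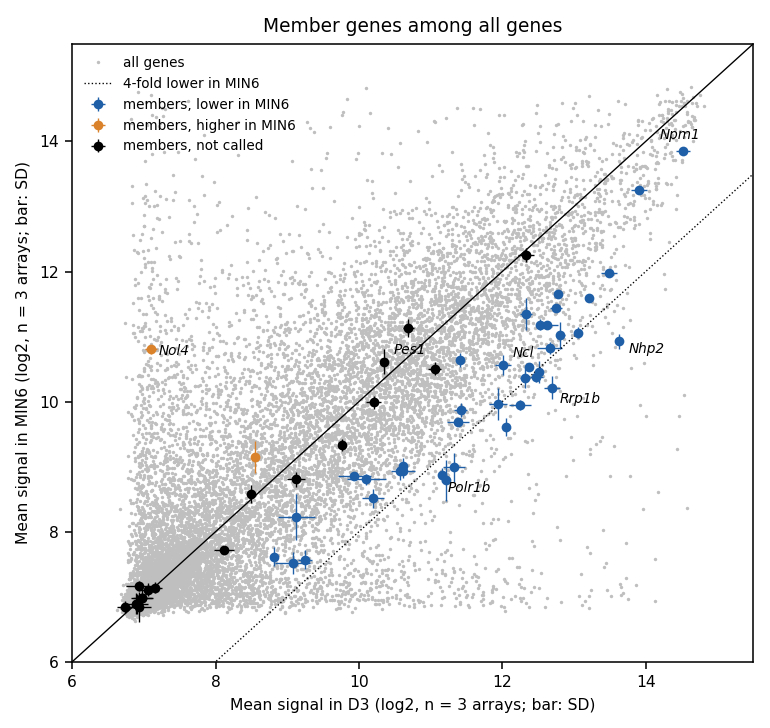
Mean signal in D3 cells (x axis) against mean signal in MIN6 cells (y axis), both log2, for all 19057 genes (gray) and for the 58 genes described here, colored by call, with bars of 1 SD over 3 arrays. The solid line marks equal signal and the dotted line 4-fold lower signal in MIN6 cells. The 38 blue points lie between the lines or just beyond the dotted one, the black points at the lower left are at background, and Nol4 lies far above the solid line.

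Among genes of Pol I transcription, 4 of 6 were lower in MIN6 and none higher, with a median difference of -1.57. For this and each group below, the shares over all genes were 17.5% called lower and 17.1% called higher. Polr1a encodes the largest catalytic subunit of Pol I. Polr1a read 12.38, 12.42 and 12.33 in D3 against 10.55, 10.53 and 10.53 in MIN6 cells. The groups did not overlap, and Polr1a was 3.57-fold lower in MIN6 cells (log2 difference -1.84, standard error 0.0933, adjusted p = 4.62e-13 from limma). Polr1b, the gene of the second largest subunit, read 11.14, 11.13 and 11.19 in D3 against 8.97, 8.76 and 8.89 in MIN6 cells, a 4.85-fold decrease (standard error 0.097, adjusted p = 2.43e-14 from limma). Its change was the largest of this group. Polr1e, a subunit that works with the initiation machinery, was 3.21-fold lower. Polr1c, a subunit of the assembly core that Pol I shares with Pol III, was 2.74-fold lower. Polr1d, the partner of Polr1c in that core, was not called. Polr1d read 12.44, 12.32 and 12.22 in D3 against 12.30, 12.13 and 12.34 in MIN6 cells, overlapping values with a difference of -0.07 (standard error 0.10), and another bright Polr1d probe gave 0.21 and was not called either. The remaining, dimmer probe, above background on 1 MIN6 array, was called lower at -0.67.

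Ubtf encodes UBF, the factor that binds ribosomal DNA and keeps it open for Pol I. The probe that stands for it read 11.11, 10.96 and 11.11 in D3 against 10.46, 10.62 and 10.43 in MIN6 cells, a difference of -0.55 (standard error 0.0988, adjusted p = 7.64e-05 from limma) that missed the 1.5-fold threshold at 1.47-fold, although the groups did not overlap. Another probe had a mean of 11.17 in D3 and 9.41 in MIN6 cells, a difference of -1.77 that was called. Both Ubtf probes were above background on all 6 arrays and had standard errors of 0.099 and 0.094, small beside the gap between their differences. The remaining, dimmer probe of the gene, above background on 2 D3 arrays and no MIN6 array, was also lower, at -0.58, and was not called. Which transcripts each probe reads was not examined. Ubtf became a call with normexp background correction (-0.59) and when either D3 replicate 2 (-0.60) or MIN6 replicate 2 (-0.61) was left out.

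All 5 genes of snoRNP proteins were lower in MIN6 cells, with a median difference of -1.62. Nop56 and Nop58 encode core proteins of the box C/D particles, which methylate ribosomal RNA. Nop56 read 12.80, 12.75 and 12.88 in D3 against 10.92, 11.25 and 10.88 in MIN6 cells. It was 3.46-fold lower (standard error 0.11, adjusted p = 8.19e-12 from limma), with MIN6 replicate 2 slightly above the other MIN6 arrays. Nop58 read 13.45, 13.61 and 13.39 in D3 against 12.02, 11.93 and 11.99 in MIN6 cells, a 2.84-fold decrease. Nhp2, Gar1 and Nop10 encode core proteins of the box H/ACA particles, which guide pseudouridylation and also form part of telomerase. Nhp2 changed most of all 58 genes after Nol4. Nhp2 read 13.61, 13.64 and 13.63 in D3 against 10.99, 10.99 and 10.80 in MIN6 cells, a 6.51-fold decrease (log2 difference -2.70, standard error 0.0971, adjusted p = 1.39e-15 from limma), and a dimmer probe, above background in D3 cells alone, was lower by at least 1.51-fold. Gar1 was 3.08-fold lower, from a mean of 13.21 ± 0.0105 to 11.59 ± 0.0573 (SD, n = 3). Nop10 was lower by little more than the threshold, at 1.57-fold. Nop10 read 13.80, 13.91 and 14.02 in D3 against 13.28, 13.24 and 13.24 in MIN6 cells, so the groups were separate but close. Its other, much dimmer probe went the opposite way, with a difference of 0.31 that was not called although the groups did not overlap. That probe was above background on 2 D3 arrays and all 3 MIN6 arrays. The call of Nop10 was lost with cyclic loess (-0.51), with the mean of both probes (-0.17) and without D3 replicate 3 (-0.58).

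Genes of nucleolar chaperones and scaffolds were mixed. Of 6 chaperones, scaffolds and other nucleolar proteins, 3 were lower, 1 was higher and 2 were not called, with a median difference of -0.54. Ncl encodes nucleolin, which binds the precursor RNA. Ncl read 12.10, 12.05 and 11.89 in D3 against 10.55, 10.42 and 10.73 in MIN6 cells, without overlap. Its signal was 2.72-fold lower (standard error 0.11, adjusted p = 1.73e-10 from limma), with a difference of -1.32 by the other Ncl probe. Npm1 encodes nucleophosmin, a chaperone of the outer nucleolus. Npm1 read 14.44, 14.63 and 14.49 in D3 against 13.82, 13.84 and 13.91 in MIN6 cells, a 1.59-fold decrease (standard error 0.0971, adjusted p = 5.83e-06 from limma). The call of Npm1 was lost with cyclic loess (-0.51) and with the mean of both probes (-0.38), 1 of which was above background on no array. Nop53, a factor that recruits the exosome to the precursor of the large subunit, was 1.98-fold lower. Nolc1, a phosphoprotein that binds snoRNPs, was dim. Nolc1 read 8.0950, 8.0002 and 8.2753 in D3 against 7.7160, 7.6955 and 7.7447 in MIN6 cells, above background on 1 MIN6 array, and its difference of -0.40 was not called, though it was with normexp background correction (-0.81). Nol12, an RNA-binding protein of the nucleolus, read 10.21, 10.10 and 10.30 in D3 against 10.10, 9.98 and 9.90 in MIN6 cells, a difference of -0.22 (standard error 0.0998) that was not called although the groups just missed each other.

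Nol7, a nucleolar protein, was 1 of the 2 genes called higher. Nol7 read 8.57, 8.50 and 8.60 in D3 against 9.11, 8.92 and 9.40 in MIN6 cells, which puts every MIN6 array above every D3 array by a small step. At 1.505-fold (standard error 0.11, adjusted p = 0.000164 from limma) it lay just past the threshold, and it was not called in the authors' processed values (0.47), without D3 replicate 2 (0.56) or without MIN6 replicate 3 (0.46).

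The small subunit processome and the factors that finish the small subunit made up the largest group. Of 26 genes 17 were lower, none was higher and 9 were not called, 7 of which were above background on no array. The median difference was -1.30. Wdr43, a WD repeat protein of the processome, led the group. Wdr43 read 12.05, 11.99 and 12.10 in D3 against 9.73, 9.66 and 9.46 in MIN6 cells, a 5.40-fold decrease (standard error 0.10, adjusted p = 1.41e-14 from limma). Rrp9, a protein of the U3 snoRNP, read 11.25, 11.19 and 11.22 in D3 against 8.92, 8.44 and 9.01 in MIN6 cells. Its 5.39-fold decrease was about as large, although MIN6 replicate 2 lay well below the other MIN6 arrays. Rrp12, a factor needed for export of the subunits in yeast, read 12.50, 12.55 and 12.38 in D3 against 10.37, 10.48 and 10.30 in MIN6 cells, a 4.27-fold decrease. Utp4 and Wdr75 were 4.16-fold and just over 4-fold lower, and Nol11 2.92-fold. Nop14 was 3.95-fold lower and Nol10 3.87-fold. Wdr3, Utp25 and Rrp36 were lower by between 3.03- and 3.21-fold. Utp14a was 3.22-fold lower by its fitted means, a size that rests partly on background since 2 of its 3 MIN6 values were not above it. Its retrogene copy Utp14b, known for its role in the testis, was at background in both lines. Decreases were smaller for Nol6 (2.46-fold), Nop9 (2.46-fold), Utp11 (2.18-fold) and Utp6 (1.70-fold). Utp15 and Utp23 had differences of -0.31 and -0.43 and were not called, although their groups did not overlap. Utp20, a large scaffold protein, was above background on no array. Utp20 read 6.88, 6.70 and 6.65 in D3 against 6.95, 6.77 and 6.81 in MIN6 cells.

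Tsr1, which acts late in the maturation of the small subunit, was read differently by its probes. The brighter probe read 10.19, 9.87 and 9.74 in D3 against 8.91, 8.87 and 8.80 in MIN6 cells, a 2.10-fold decrease. The dimmer probe had a mean of 7.29 in D3 cells, not above background, and 8.11 in MIN6 cells, above background on all 3 arrays. Its fitted difference of 0.82 passed as a call, but its bound against background was only 1.254-fold, under the threshold. The mean of both was -0.13 and was not called.

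Of 12 genes of large subunit maturation 8 were lower, none was higher and 4 were not called, with a median difference of -1.45. Rrp1b, a nucleolar protein that also joins transcription complexes, fell furthest. Rrp1b read 12.76, 12.77 and 12.57 in D3 against 10.01, 10.33 and 10.31 in MIN6 cells, a 5.58-fold decrease (standard error 0.11, adjusted p = 3.21e-14 from limma). Its relative Rrp1 was not called. Rrp1 read 8.48, 8.50 and 8.52 in D3 against 8.50, 8.49 and 8.74 in MIN6 cells, with overlapping values and a difference of 0.08 (standard error 0.0995). Nop2, a methyltransferase of the large subunit RNA long known as a proliferation antigen, was next. Nop2 read 11.39, 11.43 and 11.15 in D3 against 9.23, 8.92 and 8.81 in MIN6 cells, a 5.04-fold decrease (standard error 0.12, adjusted p = 3.07e-13 from limma), and its other probes gave -1.80 and -1.47. Rrp15 read 12.29, 12.07 and 12.36 in D3 against 9.96, 10.01 and 9.87 in MIN6 cells, a 4.91-fold decrease. Nip7 was 3.57-fold lower, Ebna1bp2 2.55-fold and the methyltransferase Rrp8 1.87-fold. Nol9, a kinase that acts on a cut end of the precursor, was above background on no MIN6 array and was at least 2.52-fold lower, a bound taken against the dimmest signals above background on those arrays.

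Pes1, Bop1 and Wdr12 form the PeBoW complex, which is needed for the large subunit, and their genes gave 3 different readings. Bop1 read 11.39, 11.23 and 11.54 in D3 against 9.71, 9.63 and 9.71 in MIN6 cells, a 3.25-fold decrease (standard error 0.10, adjusted p = 6.78e-12 from limma). Pes1 read 10.36, 10.39 and 10.29 in D3 against 10.48, 10.53 and 10.83 in MIN6 cells, with every MIN6 array above every D3 array, a difference of 0.27 (standard error 0.11, adjusted p = 0.0536 from limma) that was not called. Bop1 and Pes1 thus stood on opposite sides of 0, and the difference between the genes was not tested. Wdr12 read 6.94, 7.09 and 6.76 in D3 against 7.10, 6.65 and 6.77 in MIN6 cells, all at background, so this probe gives no level for Wdr12 in either line.

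The 3 remaining genes carry the Nol prefix but are not known as ribosome biogenesis factors. Nol4, a gene expressed in nervous tissue, read 7.02, 7.19 and 7.10 in D3 against 10.82, 10.73 and 10.86 in MIN6 cells. It was above background in MIN6 cells alone, where its signal was at least 8.14-fold higher (adjusted p = 7.44e-18 from limma), and another of its probes was also called higher. Nol4l, a relative of Nol4, was at least 2.10-fold lower and above background in D3 cells alone. Nol3, an inhibitor of apoptosis, had a difference of 0.44 by the probe that stands for it and was not called, while 2 of its 6 other probes, both above background only in MIN6 cells, passed as higher by their fitted differences, with bounds of only 1.47- and 1.08-fold. Without these 3 genes, 37 of 55 were lower and 1 was higher, with a median difference of -1.35.

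Counted as probes, 54 of 105 were called lower and 6 higher, against 13.4 and 12.5% of all probes. The 6 were a probe each of Nol7 and Tsr1 and 2 probes each of Nol3 and Nol4, of which those of Tsr1 and Nol3 had bounds under 1.5-fold. Of the 105 probes, 25 were above background on no array, of which 9 stand for their gene. In 10 genes at least 2 probes were above background on all 6 arrays. Of these genes, 6 (Ncl, Nop2, Polr1a, Rrp1b, Utp25 and Wdr75) were called lower by each such probe, Polr1d and Nol3 by none, and Ebna1bp2 and Ubtf by 1 of 2. The other, dimmer probes of Utp25, above background on some arrays only, went the opposite way, at 0.48 and 0.25, and were not called. The brighter probe of Ebna1bp2, a large subunit factor, read 12.54, 12.57 and 12.48 in D3 against 11.22, 11.09 and 11.24 in MIN6 cells, a difference of -1.35. Its dimmer probe, with means of 8.54 in D3 and 8.14 in MIN6 cells, had a difference of -0.40. Taking the mean of all probes of a gene, dim ones included, 33 genes were lower, against 14.5% of all genes. The median difference was then -0.84, with the calls of Nip7, Nol4l, Nop10, Npm1, Tsr1 and Utp6 lost and Ubtf gained.

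**Figure D3:**
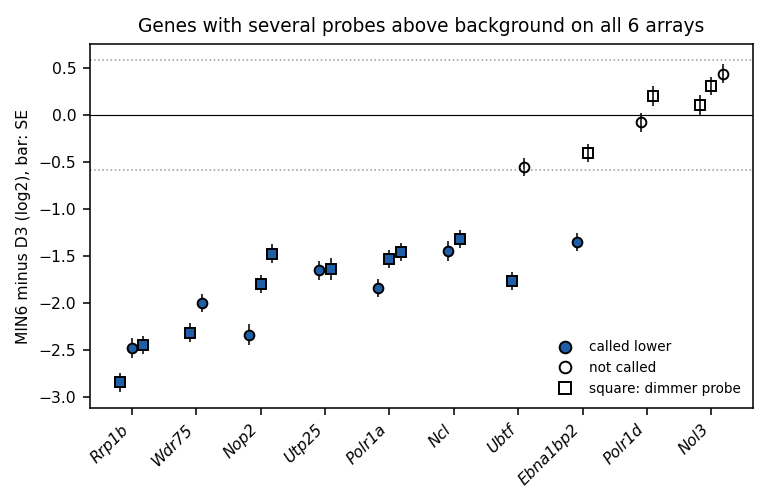
Difference between MIN6 and D3 cells (y axis, log2, with bars of 1 standard error) for each probe of the 10 genes with several probes above background on all 6 arrays. Filled symbols were called lower and open ones were not called, circles mark the probe that stands for the gene, and the dotted lines mark 1.5-fold. The probes of Rrp1b lie between -2.84 and -2.44, whereas those of Ubtf and Ebna1bp2 are split by the threshold.

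Other genes of the same pathway, listed by name and outside the 58, were mostly lower too. Of 78 measured, 58 were lower, 1 was higher and 19 were not called, 11 of which were above background on no array, and the median difference was -1.27. Over all genes, 17.5% were called lower and 17.1% higher. Of the 78, 64 were above background on all 6 arrays, and 28.9% of all such genes on the array were called lower. Of the genes called lower, the furthest apart were Gnl3 (nucleostemin), a nucleolar GTPase of stem cells, with a difference of -3.04, Mybbp1a, a nucleolar binding protein of Myb, with -2.70, and Heatr1, a processome scaffold, with -2.53. Twistnb, a subunit of Pol I, was the only one called higher, with means of 9.01 in D3 and 9.98 in MIN6 cells. Of the 4 measured subunits that Pol I shares with the other RNA polymerases, Polr2e, Polr2f and Polr2h were lower, by 1.73, 0.95 and 1.81 on the log2 scale, and Polr2l, at -0.27, was not called.

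**Figure D4:**
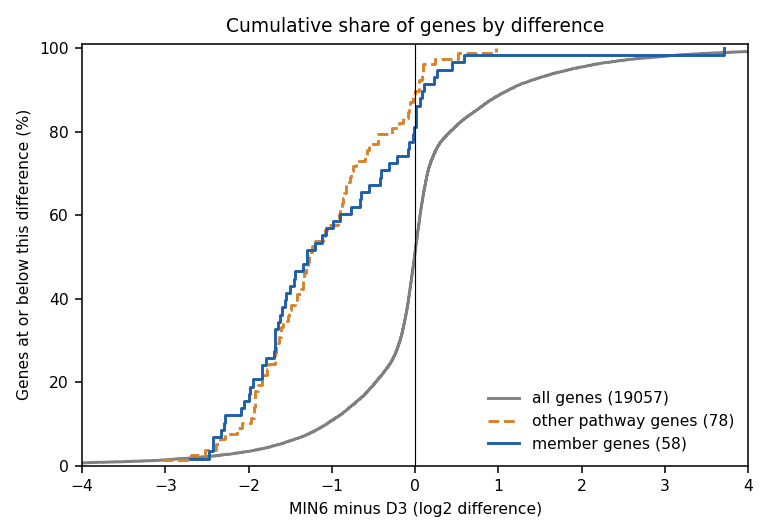
Cumulative share of genes (y axis, percent) at or below each difference between MIN6 and D3 cells (x axis, log2) for the 58 genes described here (blue), the 78 other genes of the pathway (orange, dashed) and all 19057 genes (gray). The x axis runs from -4 to 4. The blue and orange curves run close together, with medians of -1.30 and -1.27, to the left of the gray curve with its median of -0.01.

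Promoters were read for letters that transcription factors of growth genes are known to bind, with the letters searched named in turn. RefSeq promoters of GRCm38.p6, from 250 bases before to 50 bases after each start site, were found for 47 of the 58 genes. The letters CCGGAAGT, bound by ETS factors, stood on either strand in 13 of the 47 (27.7%), against 6.15% of the 15207 genes on the array with a promoter in the table and 4.31% of all 27025 genes in it. CACGTG, the E-box bound by Myc and related factors, stood in 11 (23.4%, against 9.51 and 8.09%), and GGGCGG, the GC box, in 36 (76.6%, against 53 and 38.2%). GCGCATGC, bound by NRF1, stood in 1 (2.13%, against 4.23 and 3.05%), and AAGATGGC, part of the site of YY1, in none (against 3.82 and 3.19%). Each motif was counted on its own, whether or not it overlapped another, and a gene with several start sites counted once if any window held it. The median number of CG pairs in a window was 23 for the 47 genes and 16 for genes on the array, and its part in these shares was not tested. Of the 47 genes with a promoter, 31 were called lower. Of the 13 genes with the ETS letters, 11 were called lower and 2 (Nol12 and, at background, Utp3) were not called. Of the 11 with the E-box, 6 (Nop2, Nol11, Wdr43, Utp4, Utp25 and Tsr1) were lower and 5 (Pes1, Rrp7a, Utp14b, Utp18 and Utp20) were not called, the last 4 at background.

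The stretches before the start sites of 8 genes called lower are given 5′ to 3′ on the strand of the gene, in GRCm38.p6 coordinates from RefSeq, with the ETS letters (CCGGAAGT or, on the other strand, ACTTCCGG) or the E-box in capitals. The first 6 carry the ETS letters and the last 2 the E-box. Matches wholly before the start site also stood in Utp25 (E-box), called lower, and are not printed. The same holds for Utp3 (ETS letters) and for Rrp7a, Utp14b and Utp18 (E-box), which were not called and at background. Over all windows, 6 E-box matches began before the start site and 7 after it, against 11 and 4 for the ETS letters. A match that began before the start site and ran across it counts as before it, and no such match is printed.
Nhp2 (chr11:51619723-51619772, plus strand): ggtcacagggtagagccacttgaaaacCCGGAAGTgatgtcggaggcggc
Utp4 (chr8:106893569-106893630, plus strand): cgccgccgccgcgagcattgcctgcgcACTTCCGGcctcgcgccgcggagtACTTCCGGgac
Nol10 (chr12:17348385-17348446, plus strand): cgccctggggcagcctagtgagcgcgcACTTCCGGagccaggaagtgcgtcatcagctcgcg
Nip7 (chr8:107056747-107056808, plus strand): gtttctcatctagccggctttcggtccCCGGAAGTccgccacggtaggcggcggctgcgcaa
Gar1 (chr3:129831406-129831467, minus strand): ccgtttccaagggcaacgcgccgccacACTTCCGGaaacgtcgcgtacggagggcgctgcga
Polr1c (chr17:46248053-46248114, minus strand): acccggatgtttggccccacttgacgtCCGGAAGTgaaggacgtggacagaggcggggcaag
Nop2 (chr6:125131796-125131855, plus strand): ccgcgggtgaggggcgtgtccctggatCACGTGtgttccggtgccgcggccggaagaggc
Nol11 (chr11:107189392-107189451, minus strand): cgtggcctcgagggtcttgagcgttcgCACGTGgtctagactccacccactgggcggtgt
In Nhp2, the gene that fell furthest, the ETS letters began 23 bases before the start site, and in Utp4 they stood 2 times. In Nop2 the E-box began 60 bases before the start site and in Nol11 43 bases. A match of letters is a description, and binding was not measured here.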

How the data were processed

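RNA of 3 D3 and 3 MIN6 samples was hybridized to 1 Illumina array each. The authors deposited signal intensities named as not normalized. The deposited detection p-value column rises with the signal, so it was read as 1 minus p and converted. The authors' processed values, deposited on a log2 scale and quantile-normalized with lumi per the paper, served only as an alternative. The scanner software was not stated, nor was the transformation of the processed values.

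Intensities were quantile-normalized, taken to log2 and fitted with limma 3.58.1 in R 4.3.3 over all 45281 probes, with 1 coefficient for MIN6 minus D3, no block and no filter. A call needs a Benjamini-Hochberg adjusted p under 0.05 and at least 1.5-fold. Above background means a detection p under 0.01. The probe brightest on average (mean log2 signal) stands for its gene, named by the platform annotation, in which 34885 probes have 1 gene symbol, 18 several and 10378 none. RefSeq symbols by Entrez ID gave the same 58 genes. A probe above background on no array of a line gets a lower bound, against the lowest normalized signal above background on each array, or its own where higher. The steps were tested on simulated data. The number of arrays limits the precision. The study calls the samples independent, but no source says they were separate cultures, so the spread behind the p-values may be technical.

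The members and lists were chosen with earlier results of these data known, and Utp4 and Utp25 were placed in their group after the files were opened. Genes printed with 6 values were set by a rule: named core factors, the 6 largest changes in each direction, the 3 smallest among genes above background on all arrays, and genes whose probes disagree. Values of Nop10 and Tsr1 and of the dimmer probes were added after they were seen, as were the promoter stretches with ETS letters. Alternatives were normexp (neqc, offset 16), median scaling, cyclic loess, the authors' values, detection filters, a replicate block, a robust prior with trend, each array left out, other probe choices, the methods' t-test, other fold thresholds and other memberships. The files name no slide or scan, so no such batch could be tested. Figures were drawn with Python 3.11.15 and matplotlib 3.10.9.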

Additional observations from a re-analysis of the deposited data

How the results depend on the processing

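The 58 genes kept a negative median difference under every alternative run, and no gene that was called in the reported analysis changed sign. The median of -1.30 became -1.45 with normexp background correction, -1.22 with median scaling, -1.18 with cyclic loess, -1.14 in the authors' processed values, -1.51 with either detection filter, which kept 49 of the genes, and -0.84 with the mean of all probes. Leaving out 1 array at a time gave medians of -1.34 to -1.22, 37 to 39 lower genes and 1 to 2 higher genes. Over all genes, 17.5 to 17.8% were then lower and 17 to 17.3% higher. The 2 higher genes became 1 in the authors' processed values, with a threshold of 2-fold, and without Nol3, Nol4 and Nol4l. They became 3 with cyclic loess, with the probe of lowest p and with no fold threshold, where Nol3 was called too, at 0.59, 1.12 and 0.44. The share of all genes called higher ran from 11.3% (at least 2-fold) to 23.8% (no fold threshold) over these settings. Lower genes numbered 33 (mean of all probes, or at least 2-fold) to 42 (no fold threshold), against 38. Over all genes, 14.5% were lower with the mean of all probes, 10.9% at 2-fold or more and 25.6% with no fold threshold. The methods' t-test gave 38 lower genes, or 37 after Benjamini-Hochberg adjustment, against 17.4 and 17.2% of all genes. With the replicate number as a block, 38 genes were lower and 2 higher, against 17.5 and 17.1% of all genes, with a median of -1.30. No pairing by number was seen, since deviations of same-numbered arrays correlated at 0.026, 0.004 and -0.057 over 12261 probes, and the block changed no call. With 3 arrays in each line, these values cannot show whether same-numbered samples were handled together. The median of all genes was -0.0131 with normexp background correction, -0.0083 with median scaling and 0.0069 with cyclic loess. Scaling brings the arrays to a common center, so these values follow from it and tell nothing of a shift common to all genes. Signals near background limit the 9 genes above it on no array.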
